A study of Mus musculus with 2 samples.

Results

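H3K56ac, the acetylation of lysine 56 in the globular core of histone H3, was examined at the loci of 5 lineage regulators, Sox17, Gata6, Gata4, T and Pax6, in mouse embryonic stem cells. Members were the intervals of a deposited H3K56ac interval list that overlap a fixed window around each gene by 1 bp or more. This gave 51 of the 92549 intervals of the list (0.0551%). In mm9, the build named in the submitters' processing notes, the windows are chr1:4455000-4512000 for Sox17, chr18:11025000-11112000 for Gata6, chr14:63790000-63890000 for Gata4, chr17:8601000-8661000 for T and chr2:105480000-105555000 for Pax6. The rule for the windows uses gene position and no H3K56ac value, but the loci were chosen with earlier results of this list known. They had been called loci silent in embryonic stem cells, but the list holds no expression data, so silence could not be checked.

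The study made 2 libraries, 1 of H3K56ac chromatin immunoprecipitation and 1 of input DNA, both from E14Tg2a, an established mouse embryonic stem cell line grown in serum with leukaemia inhibitory factor. Both come from this single line, with no genetic change or treatment named, and the question given by the study's title is the relation of H3K56ac to Oct4 and pluripotency. All values come from the ChIP library's list; the input was not analysed here. With 1 library there is no replicate, the number of reads is unknown, and intervals quoted below cover counting error only.

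The 5 genes encode transcription factors that direct lineages of the embryo. Sox17 specifies definitive endoderm, Gata6 and Gata4 drive primitive endoderm and later heart and gut, T (Brachyury) marks the primitive streak and nascent mesoderm, and Pax6 directs eye, forebrain and neural progenitor development. In undifferentiated embryonic stem cells, genes of this kind are known to lie in chromatin that carries both Polycomb-linked repressive marks and marks of active promoters, usually at CpG-rich starts. H3K56 sits where DNA enters and leaves the nucleosome, and its acetylation has been linked to nucleosome turnover and, in mammalian cells, to regulatory DNA.

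Promoters of the genes are shown to give the sequence context, with every CpG in capitals. RefSeq promoters of assembly GRCm38.p6 (250 bases before to 50 after a start) were matched for 2 of the 5 genes, T and Pax6, and are printed 5′ to 3′ on the plus strand. They are of another build than the list, so no interval was placed on them. The T promoter is chr17:8434173-8434472, and the Pax6 promoters are chr2:105668646-105668945 and chr2:105682213-105682512, all in GRCm38.p6.
T: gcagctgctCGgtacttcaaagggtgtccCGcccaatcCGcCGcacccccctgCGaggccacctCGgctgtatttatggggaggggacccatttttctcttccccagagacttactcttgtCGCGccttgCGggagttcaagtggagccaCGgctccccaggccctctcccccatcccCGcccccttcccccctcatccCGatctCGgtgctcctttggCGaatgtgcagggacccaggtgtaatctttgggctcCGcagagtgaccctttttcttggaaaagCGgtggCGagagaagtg
Pax6 start 1: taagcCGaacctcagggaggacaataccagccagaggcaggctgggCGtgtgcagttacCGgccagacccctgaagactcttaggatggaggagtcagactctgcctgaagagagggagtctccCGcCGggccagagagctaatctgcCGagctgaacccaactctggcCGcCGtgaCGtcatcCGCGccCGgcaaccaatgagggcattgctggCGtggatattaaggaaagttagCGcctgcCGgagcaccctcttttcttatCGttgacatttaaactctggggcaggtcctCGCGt
Pax6 start 2: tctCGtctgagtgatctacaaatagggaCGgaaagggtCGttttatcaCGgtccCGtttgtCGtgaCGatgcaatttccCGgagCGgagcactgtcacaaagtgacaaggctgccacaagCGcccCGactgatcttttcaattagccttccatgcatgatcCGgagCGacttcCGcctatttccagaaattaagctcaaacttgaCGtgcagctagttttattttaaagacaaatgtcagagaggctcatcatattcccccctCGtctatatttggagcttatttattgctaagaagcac

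The T promoter held 17 CpGs and the Pax6 promoters 18 and 16, where the median over the 32851 promoters of the table was 7. At least 17 CpGs were present in 31.4% of all promoters, at least 18 in 29.7% and at least 16 in 33.0%. The CG motif reads the same on both strands and was counted without overlap, and 94.6% of promoters held it. The ratio of observed to expected CpG was 0.607 for T, 0.698 for the first Pax6 start and 0.998 for the second, against a median of 0.384. A ratio of 0.998 or more was found in 6.06% of promoters.

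None of the 5 windows was empty, and intervals covered between 0.965% and 3.15% of each. The Gata4 window held 21 intervals, Pax6 13, T 7, Gata6 6 and Sox17 4. Same-size windows with 1 interval or more made up 43.1% of positions on chromosome 14 (Gata4), 48.8% on chromosome 2 (Pax6), 45.3% on chromosome 17 (T), 42.9% on chromosome 18 (Gata6) and 34.1% on chromosome 1 (Sox17). Interval bases inside the windows came to 3150 bp at Gata4, 1400 bp at Pax6, 1100 bp at T, 1050 bp at Gata6 and 550 bp at Sox17. This is 3.15%, 1.87%, 1.83%, 1.21% and 0.965% of the respective windows. In all, 7250 bp of 379 kb were covered (1.91%).

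Per 10 kb, Gata4 had the highest density with 2.10 intervals (exact Poisson 95% interval 1.30 to 3.21), followed by Pax6 with 1.73 (0.923 to 2.96) and T with 1.17 (0.469 to 2.40). Sox17 with 0.702 (0.191 to 1.80) and Gata6 with 0.690 (0.253 to 1.5) were lowest. Each locus overlapped its next neighbour in this order within counting error, so the order of neighbours is not resolved. It also depends on the window's limits: cropped by 25% on each side, the Pax6 window held all 13 of its intervals (3.47 per 10 kb) and the Gata4 window 7 of 21 (1.40 per 10 kb). These intervals treat H3K56ac intervals as independent, which clustered calls are not.

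**Figure D1:**
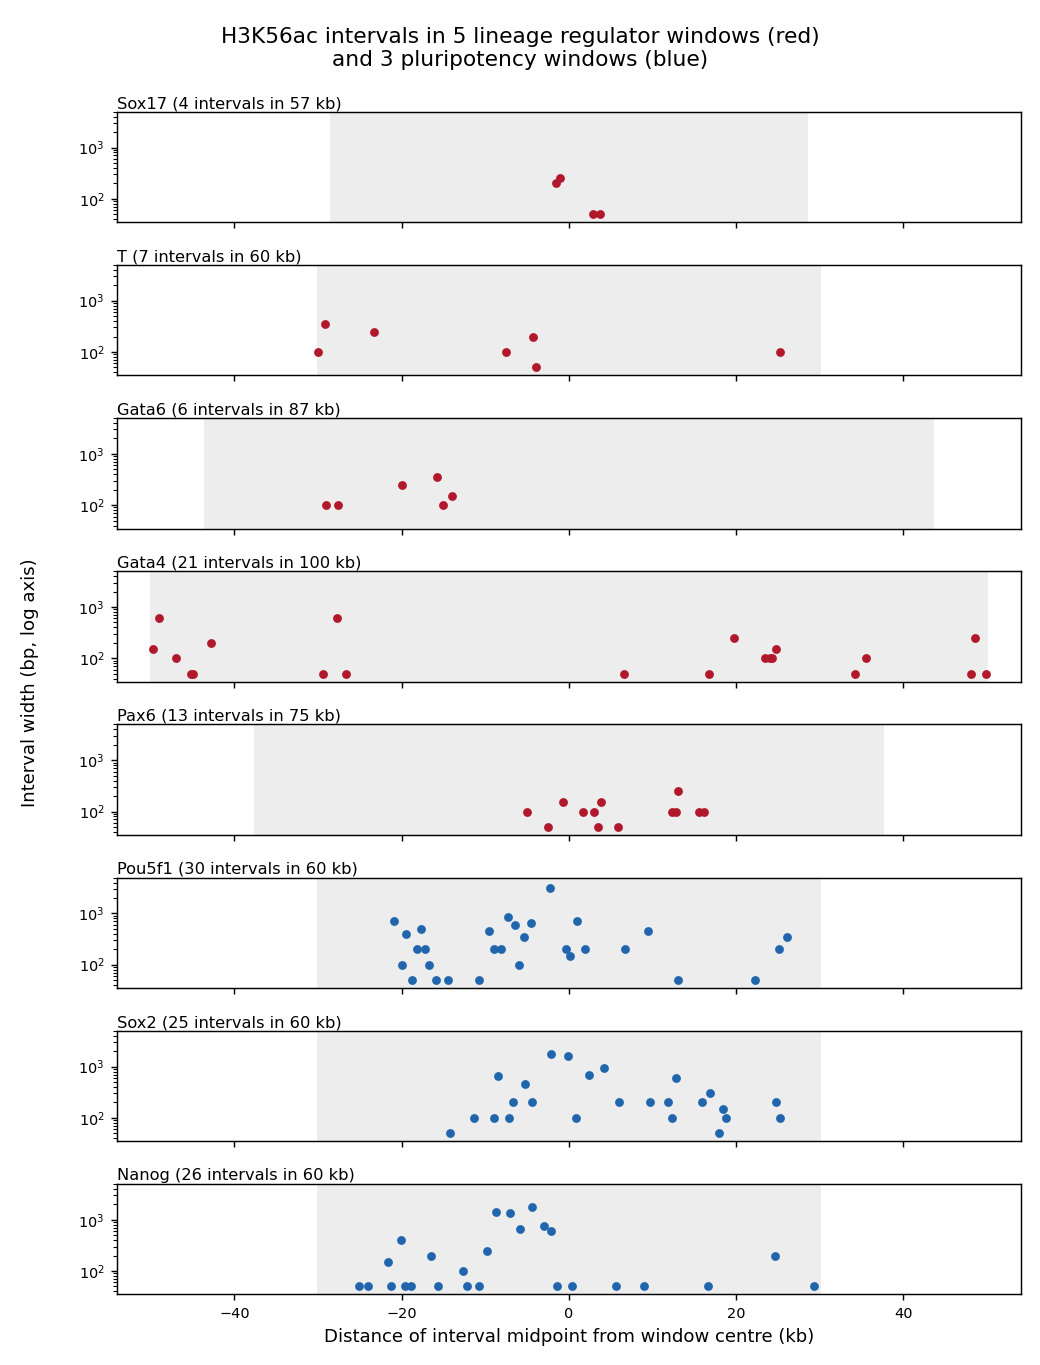
Each dot is an H3K56ac interval, placed by the distance of its midpoint from the window centre (kb, x axis) and its width (bp, log y axis); grey shading marks the window. The 4 Sox17 and 13 Pax6 intervals form a single group each, the 21 Gata4 intervals are spread over the whole 100 kb, and no red dot exceeds 600 bp, whereas each pluripotency window has blue dots above 1000 bp.

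At Sox17, the endoderm factor, all 4 intervals lay within 5.40 kb near the window's centre. They form 2 pairs. The first pair was 200 bp (4481851 to 4482050) and 250 bp (4482351 to 4482600) wide and separated by 300 bp. The second pair, 3750 bp further on, consisted of intervals of 50 bp at 4486351 to 4486400 and at 4487201 to 4487250. The remaining DNA of the window was empty, with 26.9 kb before and 24.8 kb after the group. The nearest interval outside lay 91.2 kb before and 41.0 kb after it.

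At Gata6, which directs primitive endoderm, the 6 intervals lay in 15.2 kb on the low-coordinate side of the window, from 11039351 to 11054550 on chromosome 18. The widest, 350 bp from 11052551 to 11052900, was followed by 1 of 100 bp and 1 of 150 bp. The other 3 were 100, 100 and 250 bp wide. The following 57.5 kb, 66.0% of the window, were empty, and the next interval came only after 761 kb. Of the 2556 gaps between neighbouring intervals on chromosome 18, 19 (0.743%) were at least that long. This share counts gaps by number, and long gaps take up more of a chromosome than short ones, so it does not show rarity. The Gata6 group was the last before a long stretch with no called H3K56ac.

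Gata4, the partner of Gata6 in endoderm and heart, had the most intervals and the widest spread. Its 21 intervals reached from 63790251 to 63889900, 99.7% of the window, and belonged to 4 groups when intervals less than 12.5 kb apart were joined. The first group extends past the window and counts 15 intervals, 6 of them inside. It includes 1 interval of 600 bp (63790701 to 63791300), a width reached at only 1 other place in the 5 windows, 63812001 to 63812600 in the second Gata4 group. The following group, 9 intervals over 28.9 kb, was made of narrow intervals of 50 to 250 bp, 4 of them between 63863501 and 63864850. Before it, 33.2 kb held no interval. In the GRCm38.p6 gene table the nearest protein-coding genes are Neil2 on one side, a DNA repair glycosylase, and Blk on the other. They lie 4759 bp and 101124 bp from Gata4. Which gene an interval of the window belongs to was not analysed here.

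At T, the mesoderm factor, 7 intervals fell into 3 groups. Of these, 3 lay at the low-coordinate edge (8600951 to 8607850) in a group that begins outside the window. A second group of 3 spanned 3.65 kb from 8623451 to 8627100, with widths of 100, 200 and 50 bp. After it, 29.1 kb were empty up to a single interval of 100 bp at 8656201 to 8656300, which was followed by 79.3 kb without an interval. The widest interval, 350 bp (8601651 to 8602000), belonged to the edge group. On that side the GRCm38.p6 gene table lists T2, a neighbouring gene with a related name, 11694 bp from T. The gene table also places LOC115486424 in overlap with T, so intervals in the window cannot be given to T alone. Without the edge group, T had 4 intervals, the same number as Sox17.

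Pax6, the eye and neural factor, had 13 intervals in 1 compact group. They covered 1400 bp within 21.4 kb (105512401 to 105533750), with 32.4 kb of the window empty before and 21.2 kb empty after them. All were narrow: 7 were 100 bp, 3 were 50 bp, 2 were 150 bp and 1 was 250 bp wide (105530451 to 105530700). Outside, the next intervals were 56.1 kb before and 152 kb after the group. The gene table places Elp4, an Elongator subunit gene, in overlap with Pax6, so that intervals in the window cannot be given to Pax6 alone.

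Compactness differed between the loci. For each window, positions of that size on the same chromosome holding the same number of intervals were taken. Their distinct runs of intervals were listed, the locus itself included. Of 301 such runs of 13 intervals on chromosome 2, 5 (1.66%) were as short as the run at Pax6, and the median run was 61.0 kb long. For Gata6 the figure was 26 of 186 (14%) and for Sox17 96 of 615 (15.6%). At T, 276 of 333 runs (82.9%) were as short, and at Gata4 62 of 67 (92.5%). At both, the window's limit cuts a group that continues outside, with 3 of 4 and 6 of 15 intervals inside. The runs at T and Gata4 filled 92.2% and 99.7% of the window, so their length is set in part by its limits. This comparison was chosen after the positions had been seen and is given as a description.

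The windows were then set beside all windows of the same size on the same chromosome, taken in steps of 1 kb between the first and last interval. The Gata4 window was matched or exceeded in interval number by 2.17% of 121859 windows and the Pax6 window by 6.81% of 178612. Gata6 was matched or exceeded by 13.4%, Sox17 by 13.6% and T by 15.7%. The median same-size window held 0 intervals on each of the 5 chromosomes, and the mean was 2.62 for Gata4, 3.08 for Pax6, 2.54 for Gata6, 1.64 for Sox17 and 3.08 for T. The locus counts were 8.00, 4.22, 2.36, 2.44 and 2.27 times these means, and the covered bases 6.20, 2.58, 2.07, 1.84 and 1.82 times the mean of the same windows. The standing of Gata4 and Pax6 moved with the settings. With only intervals of 150 bp or more, the share was 5.14% for Gata4 and 14.5% for Pax6, which then lay behind Sox17 (11.5%) and Gata6 (11.9%). Over all autosomes Gata4 stood at 4.39%, and in the cropped windows Pax6 (2.52%) came before Gata4 (5.63%).

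Counted in bases, the shares were 4.23% for Gata4, 10.3% for Pax6, 11.4% for Gata6, 12.1% for Sox17 and 14.7% for T. Gata4 and Pax6 ranked lower by bases than by number, and the other 3 slightly higher. The same-size windows were not restricted to genes or to DNA to which reads can be assigned, and windows around other genes were not analysed here. Among windows with at least 1 interval, the shares with at least as many intervals as the locus were 5.04% for Gata4, 14% for Pax6, 31.2% for Gata6, 34.7% for T and 39.9% for Sox17. Sox17, T and Gata6 thus lay in the upper part of the windows that hold H3K56ac intervals, but not at their extreme.

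**Figure D2:**
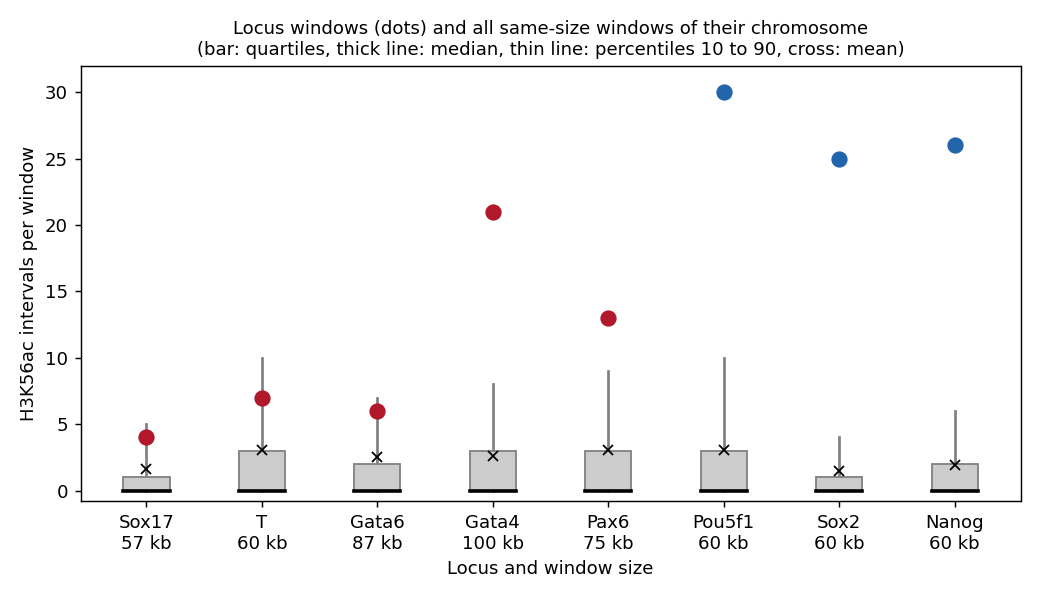
Intervals per window (y axis) for each locus (dots; red lineage regulators, blue pluripotency genes) over all same-size windows of its chromosome (bar, quartiles; thick line, median; thin line, 10th to 90th percentile; cross, mean). Sox17, T and Gata6, with 4, 7 and 6 intervals, lie below the 90th percentiles of 5, 10 and 7, while Gata4 (21) and Pax6 (13) lie above theirs (8 and 9).

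Local surroundings also differed. Each locus window was compared with the 5 same-size windows on either side. At Pax6 all 10 flanking windows held fewer intervals than the 13 of the locus, with at most 6 and with 6 of 10 empty. At T, 9 of 10 held fewer and the adjoining window on the low-coordinate side held the same number, 7, while 6 were empty. The interval from 8600951 to 8601050 crosses the limit between that window and the T window and was counted in both. By midpoint, the T window held 6 intervals. At Sox17, 9 held fewer, 6 were empty and the most distant one on the high-coordinate side held 8. The flanking means were 1.10, 1.30 and 1.10 intervals per window for Pax6, T and Sox17. Flanks of this kind are common on these chromosomes: 51.2% of same-size windows of chromosome 2, 54.7% of chromosome 17 and 65.9% of chromosome 1 were empty, and 93.2%, 84.3% and 86.4% held fewer intervals than Pax6, T and Sox17. The empty flanks are therefore not a result about these loci.

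Gata6 was asymmetric. The 5 windows of 87 kb on its low-coordinate side held 4, 6, 1, 8 and 4 intervals from the farthest to the nearest, and the 5 on the other side held none. These 5 empty windows all lie in the gap of 761 kb described above, and 57.1% of same-size windows of chromosome 18 were empty. Gata4 had the richest surroundings of the 5 loci, with a flanking mean of 7.20 intervals per 100 kb window. Of its 10 flanking windows 1 was empty, against 56.9% of same-size windows of chromosome 14, whose mean was 2.62 intervals. The adjoining windows held 10 and 7 intervals, fewer than the 21 of Gata4, but 1 window further on the high-coordinate side held 24. On chromosome 14, 97.8% of same-size windows held fewer than 21.

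**Figure D3:**
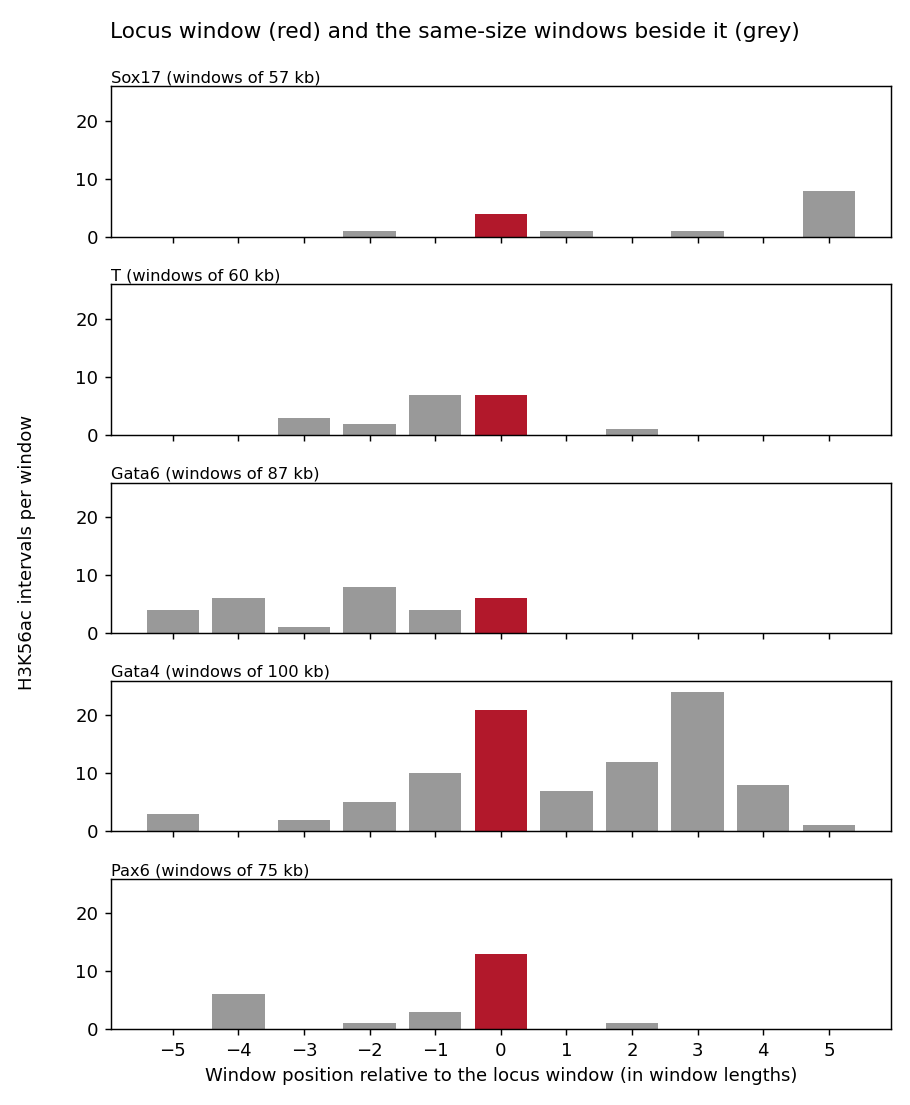
Intervals per window (y axis) in the locus window (red, position 0) and in the 5 same-size windows on each side (grey; x axis in window lengths, low to high coordinates). Pax6 exceeds all of its flanks (13 against at most 6), Gata6 marks the edge of a stretch with none, and Gata4 (21) is exceeded by 1 flank with 24.

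The members were of ordinary or narrow width. Their median was 100 bp (quartiles 50 and 175 bp), as in the whole list (100 bp, quartiles 50 and 200 bp), and the mean was 143 bp against 182 bp. Intervals of 50 or 100 bp were 33 of 51 (64.7%, exact binomial 95% interval 50.1% to 77.6%) against 58.2% in the list. Intervals of at least 500 bp were 2 of 51 (3.92%, 0.478% to 13.5%), both at Gata4, against 6.98% in the list. None of the 51 reached 1000 bp, which allows a share of up to 5.88% (3 counts of 51; exact binomial upper limit 6.98%), and the list's 1.55% lies below both limits. In each of these shares, the list's value thus lay within the limits for the 51 intervals. The mean and quartiles carry no limits, and their difference from the list was not tested. The limits given treat the intervals as independent, which clustered calls are not, so they are a description only. A neighbour less than 1 kb away was present for 31 members (60.8%), against 61.6% in the list.

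As loci known to be active in embryonic stem cells, windows of 60 kb centred on Pou5f1 (the gene of Oct4), Sox2 and Nanog, the core pluripotency factors, were measured in the same way. They are chr17:35615000-35675000, chr3:34520000-34580000 and chr6:122631000-122691000. Their positions come from general knowledge of mm9 and were not checked against an annotation of that build. They held 30, 25 and 26 intervals covering 11500, 9350 and 8550 bp. This is 19.2%, 15.6% and 14.2% of the windows, where the 5 lineage windows ranged from 0.965% to 3.15%. The ranges do not overlap, but the windows compared differ in size, 60 kb against 57 to 100 kb. In the GRCm38.p6 gene table, the nearest protein-coding gene to Pou5f1 is Tcf19, 1952 bp away. For Nanog it is Slc2a3, 13175 bp away, and for Sox2 Dnajc19, 568640 bp away. Intervals in the Pou5f1 and Nanog windows can therefore not be given to these genes alone.

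Interval density per 10 kb was 5.00 at Pou5f1 (3.37 to 7.14), 4.33 at Nanog (2.83 to 6.35) and 4.17 at Sox2 (2.70 to 6.15). Over the windows of each set it was 4.50 for the pluripotency genes and 1.35 for the lineage regulators. Single lineage windows ranged from 0.690 (Gata6) to 2.10 (Gata4). Limits are not given for the pooled values, since clustered intervals of a few loci are not replicates. The lowest pluripotency window, Sox2, and the highest lineage window, Gata4 (1.30 to 3.21), overlapped within counting error in number of intervals. In mean width they were further apart, with 374 bp at Sox2 and 150 bp at Gata4. Means are raised by a few long intervals. The median width was 200 bp at Sox2 and Pou5f1 but 50 bp at Nanog, where 14 of 26 intervals were of 50 bp. The lineage windows had medians of 100 to 125 bp. Same-size windows with at least as many intervals made up 1.14% of chromosome 17 at Pou5f1, 0.610% of chromosome 3 at Sox2 and 0.646% of chromosome 6 at Nanog.

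The sets also differed in wide intervals. Intervals of 500 bp or more were 19 of 81 (23.5%, 14.8% to 34.2%) in the pluripotency windows and 2 of 51 in the lineage windows, and those of 1000 bp or more were 6 of 81 and 0 of 51. The longest were 3150 bp at Pou5f1, 1750 bp at Sox2 and 1750 bp at Nanog, compared with 600 bp at Gata4, 350 bp at T and Gata6, and 250 bp at Sox17 and Pax6. When intervals less than 12.5 kb apart were joined, the groups at Pou5f1, Nanog and Sox2 ranked 140th, 192nd and 200th of 22232 by interval bases. Of their intervals, 30 of 30, 26 of 34 and 25 of 29 lie in the respective windows. The highest group at a lineage locus, the first at Gata4, ranked 1269th with 2800 bp, but 9 of its 15 intervals lie outside the window. The groups of Pax6, Gata6 and Sox17, all inside their windows, ranked 2602nd, 3379th and 5798th. The best group at T ranked 4327th. Intervals of a window share a library and a calling threshold and are not replicates, so no test was made of these differences.

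**Figure D4:**
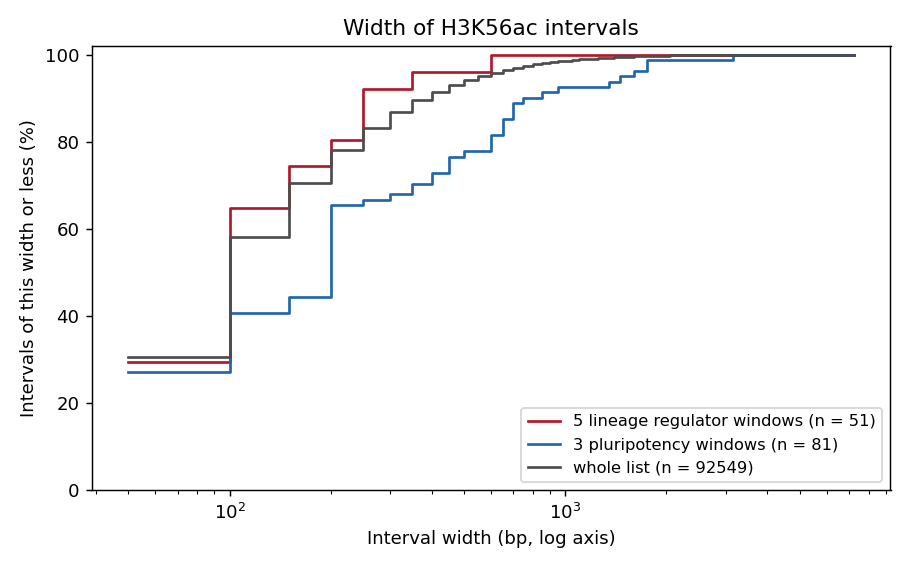
Cumulative share of intervals (%, y axis) by width (bp, log x axis) for the 51 intervals of the lineage windows (red), the 81 of the pluripotency windows (blue) and the 92549 of the whole list (grey). The red curve reaches 100% at 600 bp and runs close to the list, while the blue curve lies below both between 100 and 1750 bp.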

How the data were processed

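The list deposited for the ChIP library has 3 columns, chromosome, start and end in bp, without a header, score or count. Per the submitters' processing notes, Bowtie and build mm9 were used; which program called the intervals, at what threshold and with what use of the input is not given in the sources used here. All starts were 1 past a multiple of 50 and all ends were multiples of 50, so positions are read as 1-based and inclusive.

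Intervals overlapping each window by 1 bp or more were counted, and bases inside it summed. In place of a random draw, all same-size windows of the chromosome were listed in steps of 1 kb; neighbouring positions overlap. The share with at least as many intervals is a description without a p-value, since 1 library allows no test. The genes named are the 5 of the rule and 3 pluripotency genes; members, windows and genes were chosen with earlier results of these data known. No mm9 genome or annotation was used, so intervals carry no gene feature or sequence. The code was tested on simulated lists. Alternatives were merging, a width limit, wider or cropped windows, midpoints, bases, and non-overlapping, non-empty or all autosomal windows. Counting ran in Python 3.11.15 with pandas 2.3.3 and numpy 2.4.6, exact intervals came from scipy 1.17.1, and plots were drawn with matplotlib 3.10.9.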

Additional observations from a re-analysis of the deposited data

How the results depend on the processing

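The 51 intervals of the 5 windows were 38 after merging those less than 500 bp apart, 65 with 25 kb added on each side and 50 by midpoint, all within 1.5 times of 51. They were 18 when only intervals of 150 bp or more were kept and 31 when each window was cropped by 25% on each side, both fewer by construction. The 7250 covered bases became 4750 and 3950 under these settings. The median share of same-size windows with at least as many intervals, 13.4%, was 31.2% when empty windows were left out, 11.0% over all autosomes and 7.27% in the cropped windows, and stayed between 11.4% and 15.4% in the other 5 settings. By locus, this share ranged over the settings from 1.81% to 5.63% at Gata4, 2.52% to 14.5% at Pax6, 11.0% to 31.2% at Gata6, 11.0% to 34.7% at T and 7.27% to 39.9% at Sox17. Cropping left 13 of 13 intervals at Pax6, 4 of 4 at Sox17 and 4 of 6 at Gata6, but 7 of 21 at Gata4 and 3 of 7 at T, so the counts of Gata4 and T depend on the window's limits. No paired analysis was possible because there is 1 library per group and 1 interval list. The list has no reads, so an empty stretch may still hold H3K56ac too weak to be called.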

Other observations

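Short spacing inside the 5 windows was examined after the positions had been seen. Of the 46 gaps between neighbouring intervals within the windows, 13 were under 500 bp, and 5 of these were exactly 300 bp (38.5%), 2 at Gata4 and 1 each at Sox17, T and Pax6. In the whole list 4478 of 24689 gaps under 500 bp were of 300 bp (18.1%). Positions lie on a grid of 50 bp and the smallest gap of the list was 150 bp, so gaps under 500 bp can take only a few values. The numbers are small, and no test was made. The median gap was 1525 bp inside the windows and 1550 bp in the list.

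After their last interval, all 5 loci were followed by gaps of 41.0 kb or more: 761 kb at Gata6, 152 kb at Pax6, 79.3 kb at T, 68.0 kb at Gata4 and 41.0 kb at Sox17. Gaps at least that long were 0.587%, 3.29%, 6.18%, 7.15% and 10.9% of all gaps of the list. On the low-coordinate side the gaps were 91.2 kb at Sox17, 56.1 kb at Pax6 and 34.5 kb at Gata6. At T and Gata4 they were only 0.55 kb, a length reached by 70.8% of all gaps. Long gaps on both sides were thus not shared by the 5 loci. A gap next to a set position tends to be a long one, so these shares do not show rarity.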
